A study of Mus musculus with 8 samples.

Results

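Transcripts of 10 genes of the NF-kappaB pathway were followed in invariant natural killer T (iNKT) cells of skin and spleen. They were the Rel-family subunits Nfkb1, Nfkb2, Rel and Rela, the IkB-family genes Nfkbia, Nfkbie and Nfkbiz, and the TNF-inducible genes Tnfaip3, Tnfaip8 and Birc3. The genes were chosen by name, with earlier results of these data known, and each of the 10 was found among the 22549 genes of the count table. Bulk RNA sequencing covered 4 libraries of iNKT cells taken from skin and 4 from spleen. The mice of both groups carried 1 EGFP allele at the Ccr10 locus (CCR10+/EGFP), so no group without it was compared. iNKT cells are T cells with a semi-invariant receptor for lipids presented by CD1d. The labels number the libraries within each tissue and name neither the animals, their age nor the gate used to isolate the cells. What each p-value sets a difference against is thus the variation among libraries, possibly technical.

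NF-kappaB proteins are dimers of Rel-family subunits that are held in the cytoplasm of resting lymphocytes by IkB proteins. Signals from the antigen receptor, TNF receptors or interleukin 1 family receptors activate the IKK kinase, which marks IkB for destruction, and the freed dimers enter the nucleus. Among the genes they then switch on are their own inhibitors, such as Nfkbia and Tnfaip3, which makes transcripts of these genes a common readout of recent signalling in T cells.

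Promoter sequences are shown for 4 of the genes because they are known targets of NF-kappaB whose windows hold letters of the kind the subunits bind. Nfkbia, Nfkbie and Tnfaip3 encode inhibitors, and Rel a subunit. RefSeq promoter windows (build GRCm38.p6) were used for 7 of the 10 genes, and none was used for Nfkb1, Nfkbiz and Tnfaip8. Windows on 1 chromosome were set aside for the 10 genes but kept in the shares over all windows. A gene without a window here may thus still have an entry. The 250 bases before each annotated start were searched on both strands for the 9 letters GGNNTTTCC and for the classical NF-kappaB consensus, a pattern of 10 letters that can overlap the first. Capitals mark a match to either, and each line reads 5′ to 3′ on the gene's strand. The Nfkbia window lies at chr12:55492648-55492897 (minus strand), Tnfaip3 at chr10:19015411-19015660 (minus), Nfkbie at chr17:45555450-45555699 (plus) and Rel at chr11:23770970-23771219 (minus).
Nfkbia: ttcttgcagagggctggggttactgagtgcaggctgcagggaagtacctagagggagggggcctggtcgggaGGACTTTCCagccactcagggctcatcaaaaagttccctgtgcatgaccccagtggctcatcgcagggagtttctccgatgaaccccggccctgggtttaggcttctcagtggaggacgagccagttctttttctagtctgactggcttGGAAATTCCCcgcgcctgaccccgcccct
Tnfaip3: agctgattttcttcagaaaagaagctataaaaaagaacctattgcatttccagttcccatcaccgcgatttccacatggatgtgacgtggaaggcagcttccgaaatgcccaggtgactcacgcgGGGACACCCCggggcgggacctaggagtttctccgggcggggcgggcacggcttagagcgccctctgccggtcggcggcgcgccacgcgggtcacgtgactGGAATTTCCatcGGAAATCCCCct
Nfkbie: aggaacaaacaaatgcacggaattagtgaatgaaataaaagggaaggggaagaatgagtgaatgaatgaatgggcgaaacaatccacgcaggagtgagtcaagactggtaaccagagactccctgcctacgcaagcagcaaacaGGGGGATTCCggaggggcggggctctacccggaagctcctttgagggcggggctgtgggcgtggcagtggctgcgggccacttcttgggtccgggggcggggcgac
Rel: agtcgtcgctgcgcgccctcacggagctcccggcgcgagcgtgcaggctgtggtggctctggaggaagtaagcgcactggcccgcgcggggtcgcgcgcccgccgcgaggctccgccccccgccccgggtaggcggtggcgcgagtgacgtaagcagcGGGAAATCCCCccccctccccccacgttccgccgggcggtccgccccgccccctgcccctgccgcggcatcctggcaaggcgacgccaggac
Nfkbia held GGNNTTTCC at 2 places, from -178 to -170 and from -29 to -21 relative to the start. Tnfaip3 held it at 2 places close to the start, from -24 to -16 and from -12 to -4. Nfkbie held no GGNNTTTCC and 1 consensus match, from -106 to -97. In Rel the matches overlapped between -92 and -82. Across the 7 genes, 7 of 10 windows held at least 1 match, in 5 genes; the windows of Rela and Birc3 and the second window of Tnfaip3 held neither pattern. All 3 windows of Nfkb2 held a match too but are not shown, and its windows 2 and 3 overlap in position. Of 32851 windows of the same length in the RefSeq table, 4.93% held GGNNTTTCC, 3.9% the consensus and 7.74% either. The genes were chosen as genes of this pathway and the 9-letter pattern with these promoters in view. Their counts are thus no independent test against those shares. A match in these letters is a description and not a measured site.

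The level of a gene is its CPM, a count scaled to a common library total by TMM, and log2 fold changes are skin over spleen. A gene is called where edgeR's quasi-likelihood test over all 6920 genes that passed the low-count filter gave a Benjamini-Hochberg adjusted p under 0.05. All 10 NF-kappaB genes passed the filter; 1 of them was called higher in skin and 0 lower. By the same rule 1.85% of all genes tested were called higher and 3.58% lower. At an unadjusted edgeR p under 0.05, 3 were higher (Nfkbie, Tnfaip3 and Tnfaip8) and 0 lower, where 5.1% of all genes tested were higher and 7.33% lower. DESeq2 called 3 higher and 0 lower, where it called 4.26% of all genes higher and 6.46% lower. Limma-voom called 1 higher and 0 lower, where it called 2.99% of all genes higher and 7.23% lower. The fitted log2 fold change was above 0 for 7 of the 10 genes, with a median of 0.77, while the median over all genes tested was -0.29. Every skin library stood above every spleen library for 2 of the 10 genes, Nfkbie and Tnfaip8. The same held for 6.11% of all genes tested, and the reverse for 13.4% of all genes and 0 of these 10.

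**Figure D1:**
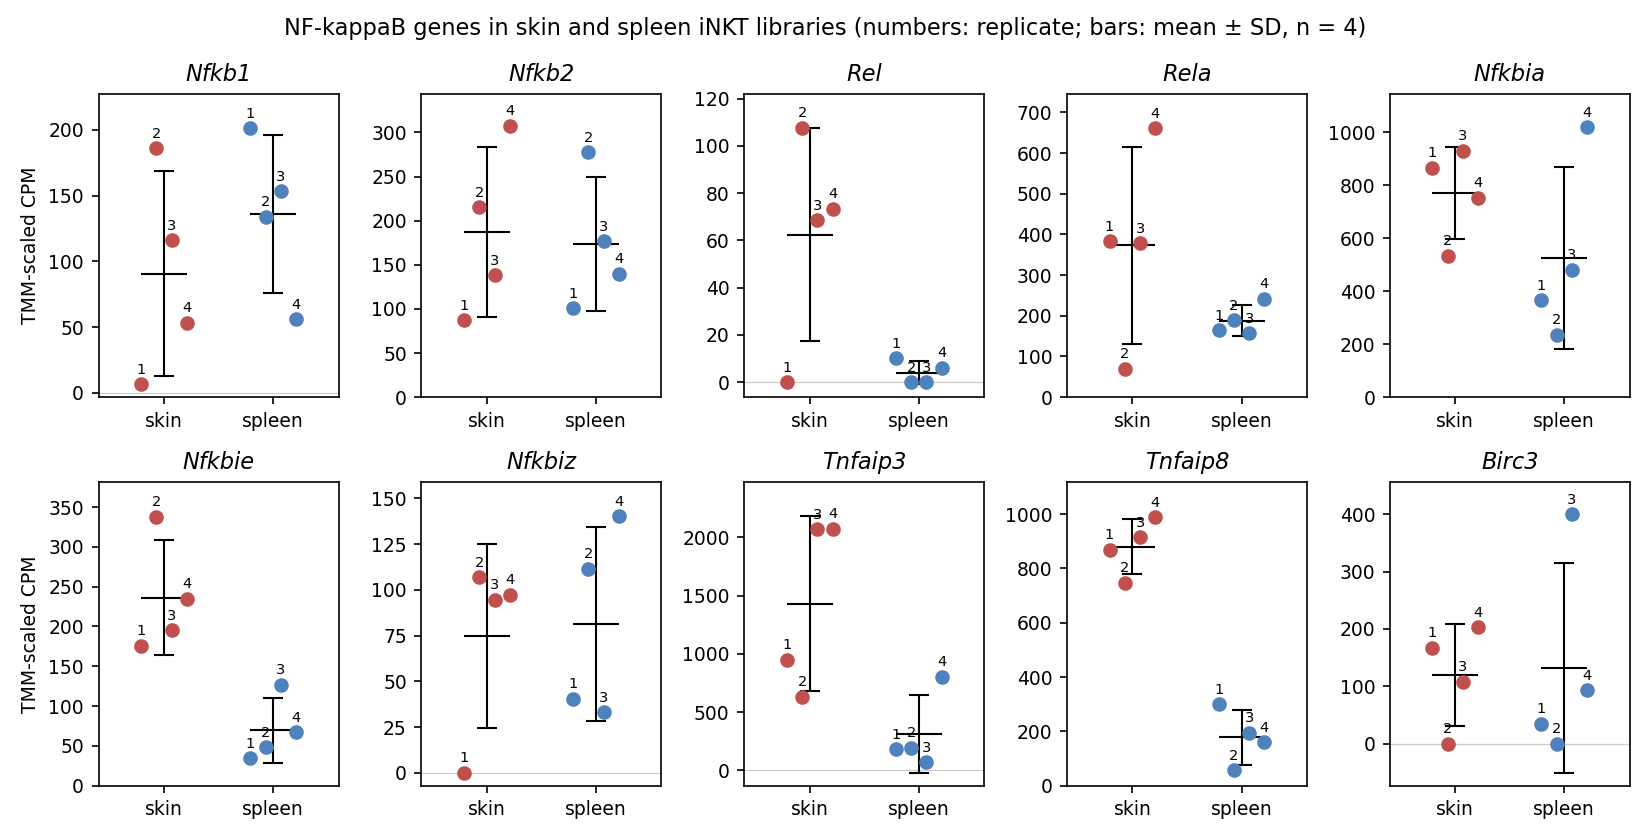
TMM-scaled CPM (y axis) of the 10 NF-kappaB genes in the 4 skin libraries (red) and the 4 spleen libraries (blue), each point numbered by its replicate, with mean ± SD as bars. Tnfaip8 and Nfkbie separate the tissues, Tnfaip3 and Nfkbia are high in spleen replicate 4, and Rel, Nfkbiz and Birc3 hold libraries at 0.

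The libraries differed in ways that touch these values. Totals ranged from 7221498 to 9791973 expected counts in skin and from 7191131 to 9361237 in spleen. Genes with a count above 0 numbered 5309 to 6018 in skin libraries and 6429 to 10106 in spleen libraries (two-sided exact permutation p = 0.0286, the lowest possible with 4 libraries a side). For a gene with no count, 3 counts set the upper limit, which was 0.292 to 0.454 CPM by library and covers counting error only. Zeros were common well above that floor: of genes at 60 to 120 CPM in the other libraries of a tissue, 26.6% of skin values and 9.56% of spleen values stood at 0. At 120 to 200 CPM these shares were 13% in skin and 4.54% in spleen, and at 500 to 1000 CPM 0.219% in skin. In bulk RNA, fewer cells that express a gene and less RNA in each cell cannot be told apart.

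Of the 4 subunit genes, 0 were called by edgeR, DESeq2 or limma-voom, and 0 had an unadjusted edgeR p under 0.05. Rel encodes c-Rel, the subunit that lymphocytes rely on for activation. It stood at 0, 108, 68.4 and 73.4 CPM in skin replicates 1 to 4, against 10.1, 0, 0 and 6.09 CPM in spleen replicates 1 to 4. The skin libraries other than replicate 1 were above every spleen library, and replicate 1 shared the value 0 with spleen replicates 2 and 3. The log2 fold change of Rel was 3.94 ± 2.72 (SE; edgeR adjusted p = 0.816), with a 95% interval from -2.24 to 10.11. Without skin replicate 1 it was 4.32 (edgeR adjusted p = 0.485), and the adjusted p ranged from 0.395 to 1 over all alternatives.

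Rela encodes p65, the subunit with a strong activation domain. It stood at 383, 70.1, 379 and 661 CPM in skin, against 165, 189, 156 and 242 CPM in spleen. Skin replicates 1, 3 and 4 were above every spleen library and replicate 2 below every one. Rela had a log2 fold change of 0.99 ± 0.58 (SE), for which edgeR gave an adjusted p of 0.683, with a 95% interval from -0.33 to 2.31. Without skin replicate 4 it was 0.52, and without skin replicate 2 it was 1.30 and still not called (edgeR adjusted p = 0.0943). Its coefficient of variation was 64.7% in skin and 20.5% in spleen.

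Nfkb1 and Nfkb2 encode the precursors p105 and p100, which are cut to p50 and p52. Nfkb1 stood at 6.51, 186, 116 and 53.4 CPM in skin, against 201, 134, 153 and 55.9 CPM in spleen. The ranges overlapped, and the lowest value of each tissue lay in skin replicate 1 and spleen replicate 4. The log2 fold change of Nfkb1 was -0.59 ± 1.03 (SE; edgeR adjusted p = 0.998), with a 95% interval from -2.92 to 1.74. It was -0.23 without skin replicate 1 and -1.24 without skin replicate 2. Nfkb2 stood at 87.5, 215, 138 and 308 CPM in skin, against 101, 278, 177 and 140.0 CPM in spleen. These ranges nearly coincided. Nfkb2 had a log2 fold change of 0.11 ± 0.56 (SE), for which edgeR gave an adjusted p of 0.998, with a 95% interval from -1.17 to 1.38. Its sign turned when skin replicate 4 or spleen replicate 1 was left out (-0.28 and -0.09). The intervals of both genes include changes of more than 2-fold in either direction, so equal levels were not shown.

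The IkB-family genes differed among themselves. Nfkbie, which encodes the inhibitor IkB-epsilon, stood at 176, 338, 195 and 235 CPM in skin, against 34.6, 48.6, 127 and 67.3 CPM in spleen. All 4 skin libraries were above all 4 spleen libraries, and the mean was 3.40-fold as high in skin. The log2 fold change of Nfkbie was 1.77 ± 0.63 (SE; edgeR adjusted p = 0.204), so it was not called. DESeq2 called it (adjusted p = 0.00988), and over all alternatives the adjusted p ranged from 0.00988 to 0.408. Spleen replicate 4 did not stand out for Nfkbie, at 0.96 times the mean of the other spleen libraries.

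Nfkbia encodes IkB-alpha, the inhibitor that is degraded and remade in each round of signalling. It stood at 866, 534, 929 and 752 CPM in skin, against 366, 235, 481 and 1019 CPM in spleen. Its highest value of all 8 libraries was in spleen replicate 4, and the other 3 spleen libraries were below every skin library. Nfkbia had a log2 fold change of 0.55 ± 0.43 (SE), for which edgeR gave an adjusted p of 0.896 with all libraries. It was 0.29 without spleen replicate 2. Without spleen replicate 4 it was 1.09 and still not called (edgeR adjusted p = 0.158, the lowest of its alternatives, which reached 1).

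Nfkbiz encodes IkB-zeta, a nuclear IkB that acts on a subset of NF-kappaB targets. It stood at 0, 107, 94.6 and 97.4 CPM in skin, against 40.4, 112, 33.2 and 140.2 CPM in spleen. The tissues overlapped, and the 0 lay in skin replicate 1, the library in which Rel was also at 0. The log2 fold change of Nfkbiz was -0.12 ± 1.66 (SE; edgeR adjusted p = 0.999), with a 95% interval from -3.89 to 3.65. Without skin replicate 1 it was 0.27, without spleen replicate 2 0.05 and without spleen replicate 4 0.28.

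**Figure D2:**
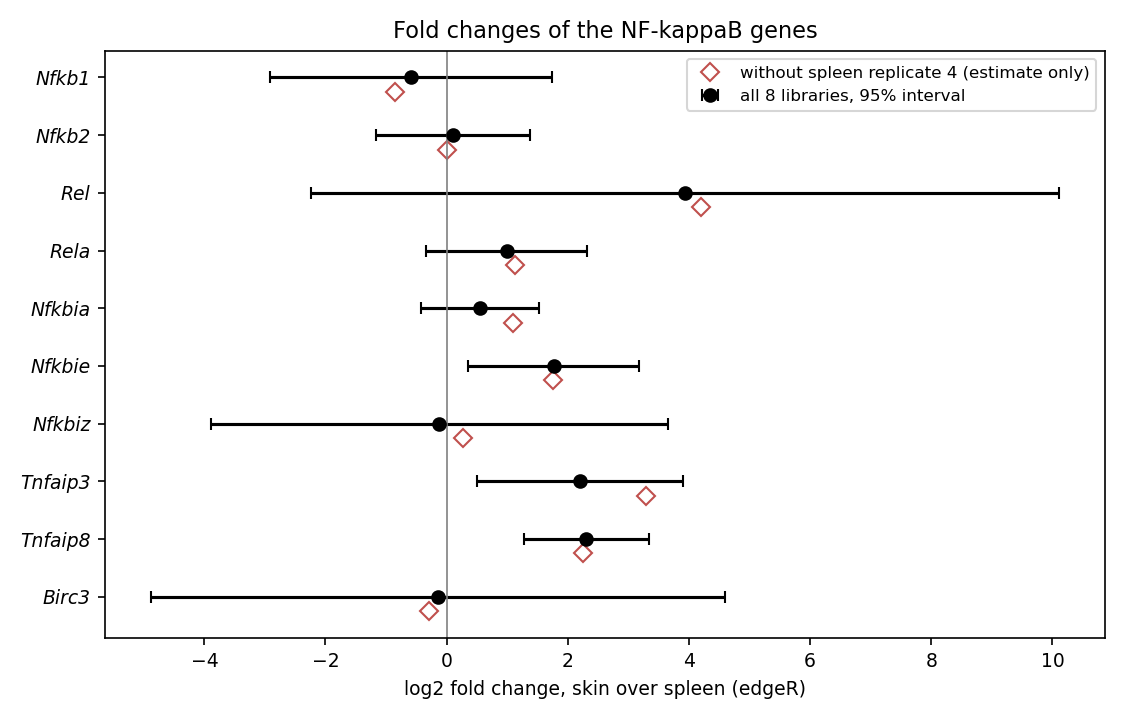
Log2 fold change of each NF-kappaB gene, skin over spleen (x axis), with its 95% interval from all 8 libraries (black) and the estimate without spleen replicate 4 (open diamonds). The intervals of Tnfaip8, Tnfaip3 and Nfkbie lie above 0 before adjustment, and the estimates of Tnfaip3 and Nfkbia are larger without spleen replicate 4 (3.29 and 1.09).

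Tnfaip8 was the gene of the 10 that rose in skin. It encodes a TNF-induced protein of the TIPE family that is known to oppose apoptosis. It stood at 869, 747, 914 and 989 CPM in skin, against 299.5, 56.0, 196 and 159 CPM in spleen. All skin libraries were above all spleen libraries, with a gap from 299.5 to 747 CPM. Tnfaip8 averaged 880.0 ± 101 CPM in skin cells and 178 ± 101 CPM in spleen cells (SD, n = 4 each), and its coefficient of variation in skin, 11.5%, was the lowest of the 10 genes there. The log2 fold change of Tnfaip8 was 2.31 ± 0.45 (SE; edgeR adjusted p = 0.0398), with a 95% interval from 1.28 to 3.34. The call rests on a narrow margin: it held in 2 of 8 fits without 1 library, those without spleen replicate 1 or 2. It was lost without any 1 of the skin libraries (edgeR adjusted p = 0.0699 to 0.083), without spleen replicate 3 (edgeR adjusted p = 0.129) and without spleen replicate 4 (edgeR adjusted p = 0.123). The fold change itself stayed between 2.002 and 2.67 on the log2 scale in those 8 fits, and the adjusted p ranged from 8.81e-05 to 0.129 over all alternatives.

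Tnfaip3 encodes A20, a ubiquitin-editing enzyme that shuts off signalling to IKK. It stood at 951, 632, 2069 and 2075 CPM in skin, against 180.1, 192, 67.7 and 803 CPM in spleen. Spleen replicate 4 lay above skin replicate 2 and below the other skin libraries, and the remaining 3 spleen libraries were below every skin library. Tnfaip3 averaged 1432 ± 751 CPM in skin cells and 311 ± 333 CPM in spleen cells (SD, n = 4 each). Skin over spleen, Tnfaip3 had a log2 fold change of 2.20 ± 0.75 (SE), for which edgeR gave an adjusted p of 0.179, so it was not called. Without spleen replicate 4 the spleen mean was 147 ± 68.6 CPM (SD, n = 3) and the log2 fold change 3.29 (edgeR adjusted p = 0.0466, called). In that fit Tnfaip3 was the 1 gene of the 10 called, beside 0.908% of all genes called higher and 0.284% lower. DESeq2 called it with all libraries (adjusted p = 0.0111), and over all alternatives the adjusted p ranged from 0.0111 to 0.36.

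Birc3 encodes cIAP2, a ubiquitin ligase of TNF receptor complexes that also restrains apoptosis. It stood at 167, 0, 108 and 203 CPM in skin, against 34.8, 0, 399.8 and 92.9 CPM in spleen. Each tissue held 1 library at 0, and the highest value was in spleen replicate 3. Birc3 had a log2 fold change of -0.14 ± 2.09 (SE), for which edgeR gave an adjusted p of 0.999, with a 95% interval from -4.89 to 4.60. It was 1.49 without spleen replicate 3 and 0.24 without skin replicate 2, so the sign rested on single libraries.

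Spleen replicate 4 stood apart in immediate early genes, the first wave of transcription after a stimulus. The summed level of 20 such genes was 12888, 13792, 24591 and 18676 CPM in skin, against 1264.9, 1848, 1330.0 and 10776 CPM in spleen, for which a two-sided exact permutation test gave p = 0.0286. The spleen library high in this sum was the one high in Tnfaip3, at 5.47 times the mean of the other spleen libraries, and in Nfkbia, at 2.82 times. It was the highest spleen library for 4 of the 10 NF-kappaB genes (Rela, Nfkbia, Nfkbiz and Tnfaip3), for 24.8% of all genes tested and for 13 of 14 immediate early genes tested. Spleen replicate 4 also had the most genes above 0 (10106). In it 0.78% of genes tested were at 0, against 4.84% to 22.4% in the other spleen libraries. In skin, replicates 3 and 4 were highest both in the sum and in Tnfaip3. The labels do not say how the cells were isolated, and any step that differed by tissue cannot be told apart from tissue. The part of these genes' common level in the values of Tnfaip3 and Nfkbia was not tested.

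**Figure D3:**
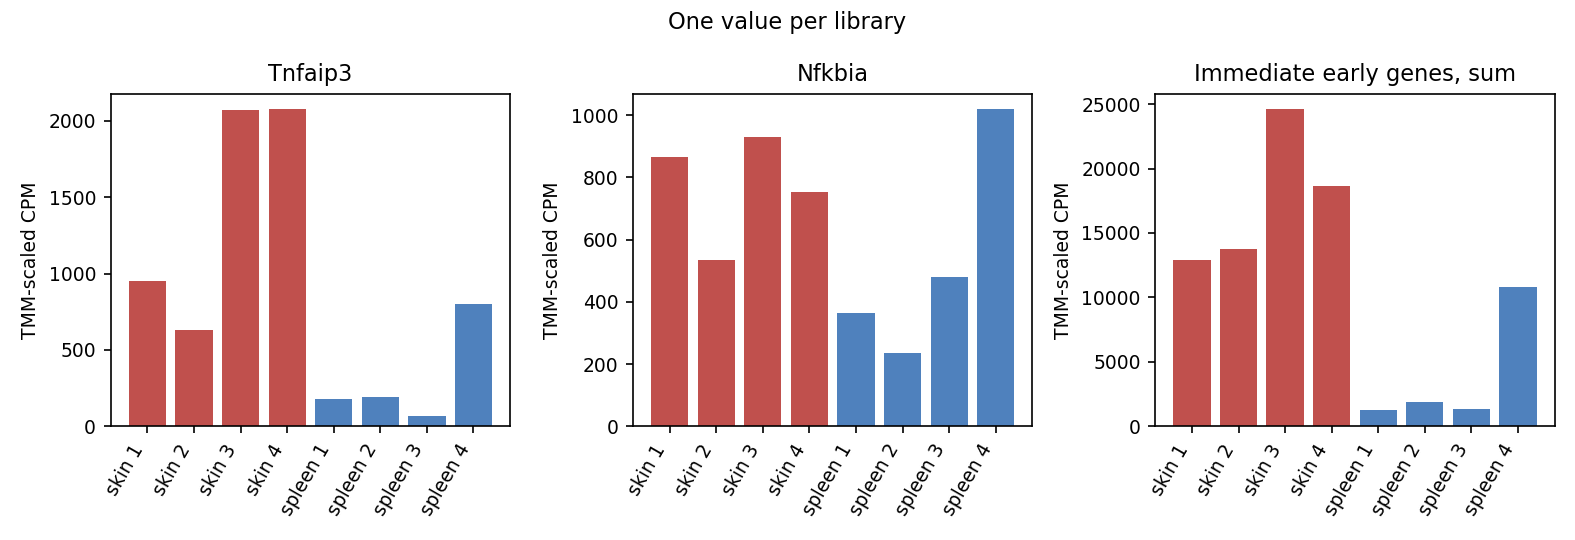
TMM-scaled CPM (y axis) of Tnfaip3, of Nfkbia and of the sum of 20 immediate early genes in each skin (red) and spleen (blue) library, 1 bar per library. Spleen replicate 4 is the highest spleen library in each panel (803, 1019 and 10776 CPM), and skin replicates 3 and 4 are the highest in Tnfaip3 and in the sum.

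The profiles most like those of Nfkbia and Tnfaip3 were sought among 2301 genes that averaged at least 100 CPM. Likeness was the root mean square distance between log2(CPM + 1) profiles over the 8 libraries, each centred on its own mean. Nearest to Nfkbia were Capza2, an actin capping subunit, at 0.39, Zyx, which encodes zyxin, at 0.41 and the small GTPase Arf6 at 0.42, where the median gene was at 1.22. Among the 3 nearest to Tnfaip3 were the transcription factor Cebpb at 0.69 and Zfp36, an RNA-binding protein that destabilises cytokine mRNAs, at 0.76, where the median gene was at 2.04. Zfp36 stood at 832 ± 346 CPM in skin cells and 198 ± 293 CPM in spleen cells (SD, n = 4 each), with 638 CPM in spleen replicate 4. Zfp36 is on the immediate early list too.

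Skin libraries carried transcripts of keratinocytes, in which the NF-kappaB genes are also expressed. The summed level of 12 keratinocyte markers was 891, 334, 1032 and 273 CPM in skin, against 29.5, 0, 6.13 and 9.81 CPM in spleen. Of the 12, 4 stood at 0 in all skin libraries (Krt1, Krt6a, Dsp and Trp63). The basal keratins Krt5 and Krt14 were at 0 in skin replicate 2 and in all spleen libraries, while Krt15 (148 CPM), Perp (151 CPM) and Sfn (35.4 CPM) were present in that skin library. In skin replicate 4, with the lowest keratinocyte sum of the skin libraries, Krt14 and Krt15 were at 0, and Krt17 (91.9 CPM), Perp (76.0 CPM), Sfn (75.7 CPM) and Krt5 (29.8 CPM) were present. Perp was above 0 in all skin libraries and at 0 in all spleen libraries. The part of keratinocyte RNA in the levels of the NF-kappaB genes was not tested.

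The libraries of both tissues carried T cell transcripts. The sum of 12 T and iNKT markers was 6509.8 to 8873 CPM in skin and 7429 to 10984 CPM in spleen. Cd3e stood at 589 ± 252 in skin and 528 ± 43.3 CPM in spleen, and Zbtb16, the iNKT lineage factor, at 44.5 ± 25.7 in skin and 66.6 ± 63.0 CPM in spleen (SD, n = 4 each). Of the 12 markers 2 fell, where edgeR called 3.58% of all genes lower. Klrb1c, the NK1.1 gene, had no count in skin and 237 ± 152 CPM in spleen cells (edgeR adjusted p = 0.0187), and Cd3d averaged 470.4 ± 83.9 CPM in skin cells and 1112 ± 226 CPM in spleen cells (edgeR adjusted p = 0.025). B cell markers summed to 0 to 76.1 CPM in skin and 48.9 to 235 CPM in spleen, and monocyte and macrophage markers to 0 to 92.8 CPM in skin and 0 to 48.5 CPM in spleen. Dendritic and Langerhans cell markers summed to 228 to 427 CPM in skin and 21.7 to 382 CPM in spleen, led in skin by Cd74 at 134 ± 81.3 CPM. Neutrophil markers reached 0.114 CPM in skin cells and 41.6 CPM in spleen cells, and fibroblast markers 168 CPM in skin and 0 in spleen. Endothelial markers reached 77.0 in skin and 57.4 CPM in spleen, and red cell markers 2.12 CPM in skin and 274 CPM in spleen. Mast cell and basophil markers were at 0 in all libraries. The genes leading the lists in skin were Blk (19.0 CPM), Cd68 (13.7 CPM), Csf3r (0.0559 CPM), Perp (153 CPM), Sparc (42.3 CPM), Pecam1 (19.5 CPM) and Hbb-b2 (0.424 CPM), as skin means of CPM, which is not corrected for transcript length.

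The other genes of the pathway were taken by role, in lists chosen with earlier results of these data known. Of 112 listed genes, 81 passed the filter, 7 were called higher in skin, 3 lower and 71 were not called, where edgeR called 1.85% of all genes higher and 3.58% lower. Their median log2 fold change was 0.30, against -0.29 over all genes tested. Without spleen replicate 4, 4 were called higher and 1 lower, where 0.908% of all genes were called higher and 0.284% lower.

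The TNF receptor Tnfrsf1b rose in skin, the 1 called gene of 9 receptors tested that signal to NF-kappaB, where edgeR called 1.85% of all genes higher. It encodes TNFR2, which costimulates T cells. Tnfrsf1b stood at 592, 507, 1150.5 and 1725 CPM in skin, against 160.0, 149, 226 and 137 CPM in spleen. The tissues did not overlap, and Tnfrsf1b rose by 2.56 ± 0.43 on the log2 scale (SE; edgeR adjusted p = 0.0197). The call was lost without skin replicate 3 or any 1 spleen library, with an edgeR adjusted p of 0.0201 to 0.078 over the fits without 1 library. The costimulatory receptor Cd28 stood at 511 ± 199 CPM in skin cells and 338 ± 227 CPM in spleen cells, and Tnfrsf18, which encodes GITR, at 419 ± 267 in skin and 294 ± 117 CPM in spleen (SD, n = 4 each). Neither was called.

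Between receptor and IKK, Fadd and Tirap fell. The death domain adaptor Fadd had no count in skin and 15.1, 5.35, 17.2 and 9.07 CPM in spleen, with the skin level at least 30.2-fold lower when each skin library is set to 3 counts (edgeR adjusted p = 0.0473). Tirap, a sorting adaptor of Toll-like receptors, stood at 0.151, 0, 0.114 and 0.141 CPM in skin, against 172, 45.1, 71.7 and 15.0 CPM in spleen (edgeR adjusted p = 0.0473). Both calls were lost in each of the 8 fits without 1 library. Both genes share a tied edgeR adjusted p with genes outside the lists that had no count in skin. Of 11 TRAF adaptors and RIP kinases tested, Fadd was the 1 called, and of 6 interleukin 1 receptor and Toll adaptors Tirap was the 1 called, where 3.58% of all genes were called lower. Limma-voom called 3 TRAF and RIP genes and 1 Toll adaptor lower, where it called 7.23% of all genes lower. The median log2 fold change was -1.67 for the TRAF and RIP list and -0.22 for the Toll list. The adaptor Myd88 did not overlap between the tissues (351 ± 129 CPM in skin cells and 95.3 ± 91.0 CPM in spleen cells) and was not called (edgeR adjusted p = 0.881). The kinase Irak1 averaged 102 ± 41.7 CPM in skin cells and 181 ± 82.7 CPM in spleen cells, the kinase Ripk1 138 ± 146 in skin and 144 ± 47.0 CPM in spleen, and Birc2, which encodes cIAP1, 122 ± 170 in skin and 119.9 ± 36.3 CPM in spleen (SD, n = 4 each). None of these 3 was called.

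None of the 8 IKK and upstream kinases tested, the other 4 Rel and IkB genes or the 11 ubiquitin regulators was called by edgeR. At an unadjusted edgeR p under 0.05, 1 kinase list gene was lower and 2 ubiquitin regulators were higher, with 0 of the other Rel and IkB genes. At that threshold 5.1% of all genes tested were higher and 7.33% lower. DESeq2 called 1 kinase list gene lower and 1 ubiquitin regulator higher, where it called 4.26% of all genes higher and 6.46% lower. Limma-voom called 0 genes of these lists, where it called 2.99% of all genes higher and 7.23% lower. The catalytic subunit Chuk averaged 157 ± 125 CPM in skin cells and 101 ± 51.4 CPM in spleen cells, and the kinase Tbk1 159.7 ± 120.1 in skin and 110.5 ± 91.4 CPM in spleen. Prkcq, a kinase of antigen receptor signalling, averaged 201 ± 142 CPM in skin cells and 325 ± 133 CPM in spleen cells. The adaptor Bcl10 averaged 262 ± 203 in skin and 40.9 ± 46.5 CPM in spleen. Relb averaged 122 ± 86.9 CPM in skin cells and 173 ± 44.8 CPM in spleen cells, and the inhibitor gene Nfkbib 204 ± 111 in skin and 116 ± 54.2 CPM in spleen. Among ubiquitin regulators, the A20 partner Tax1bp1 averaged 614 ± 243 CPM in skin cells and 274 ± 96.3 CPM in spleen cells (edgeR adjusted p = 0.189; called by DESeq2 with an adjusted p of 0.0457). Rbck1, a subunit of the linear ubiquitin ligase, was lower in every skin library, at 93.0 ± 75.1 in skin and 444 ± 234 CPM in spleen, which gave no call (edgeR adjusted p = 0.733).

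**Figure D4:**
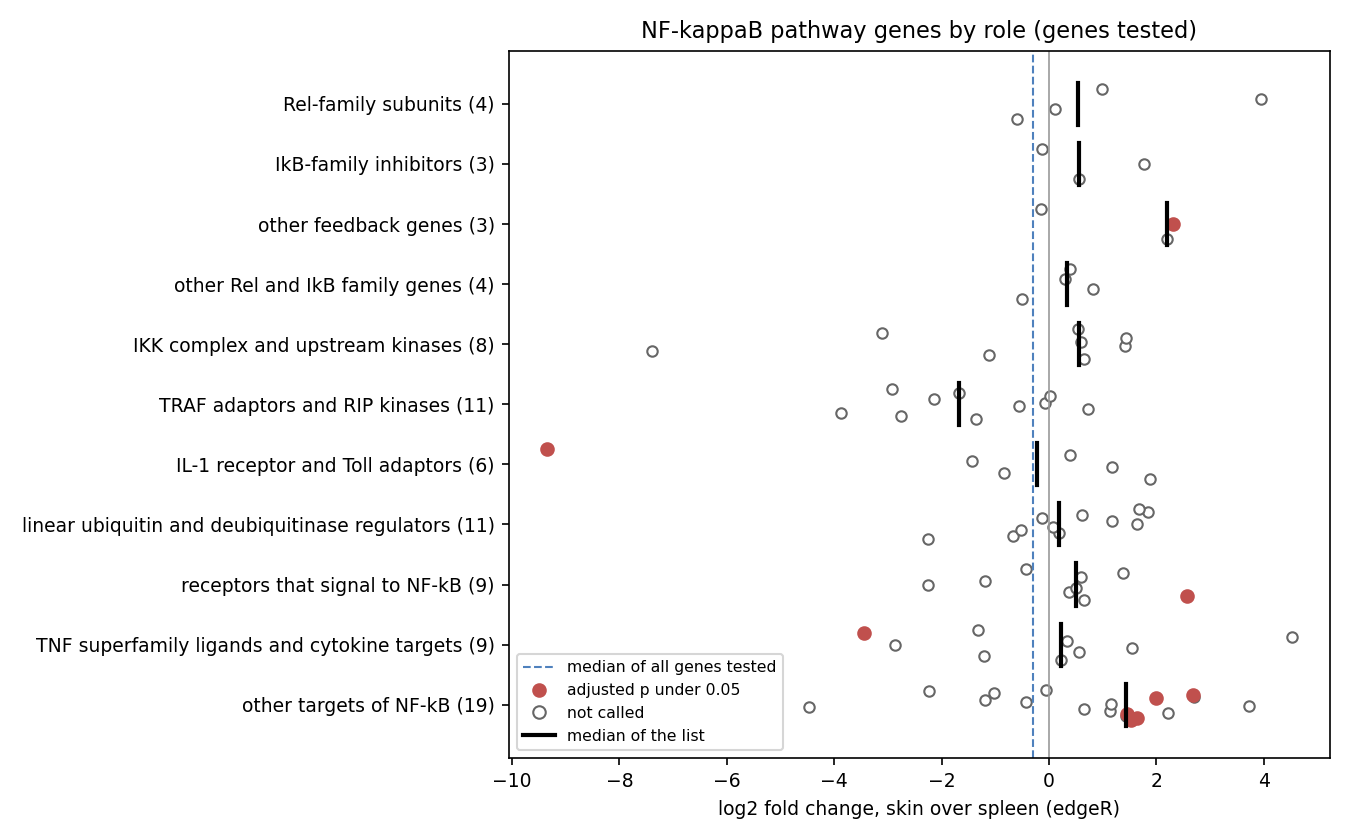
Log2 fold changes, skin over spleen (x axis), of NF-kappaB pathway genes in 11 lists by role, with the number tested in brackets; filled points passed the adjusted test, black ticks are list medians and the dashed line is the median of all genes. Fadd and Plaur, with no count in 1 tissue, are not drawn as points. Most called genes higher in skin are among other targets of NF-kappaB (median 1.43), a list chosen with earlier results of these data known.

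Other targets of NF-kappaB held most of the called genes, 6 higher and 0 lower of 19 tested, with 10 higher and 2 lower at an unadjusted edgeR p under 0.05. Over all genes, edgeR called 1.85% higher and 3.58% lower, and 5.1% were higher and 7.33% lower at the unadjusted threshold. DESeq2 called 9 higher and 2 lower of the 19 (4.26% and 6.46% of all genes), and limma-voom 6 higher and 1 lower (2.99% and 7.23% of all genes). The median log2 fold change of the list was 1.43. The list was chosen with earlier results of these data known, so its share of calls is not independent support for a change in NF-kappaB targets. It also holds Junb and Ier2, which are on the immediate early list. Every skin library stood above every spleen library for 9 of the 19 genes and below every one for 2, where the shares of all genes were 6.11% and 13.4%. The 4 with the lowest adjusted p were Cd44, Sqstm1, Icam1 and Bcl2a1b. The hyaluronan receptor gene Cd44 rose by 1.98 ± 0.27 on the log2 scale (SE; edgeR adjusted p = 0.00808) and was called in each of the 8 fits without 1 library. With replicate number as a block, Cd44 was not called (edgeR adjusted p = 0.0589). The autophagy receptor Sqstm1 rose by 1.64 ± 0.25 (SE; edgeR adjusted p = 0.0125), and its call was lost without spleen replicate 1 (edgeR adjusted p = 0.0511). The adhesion molecule Icam1 rose by 1.53 ± 0.27 (SE; edgeR adjusted p = 0.0243), and 2 of the 8 fits without 1 library kept that call. The BCL2 family gene Bcl2a1b stood at 766 ± 209 CPM in skin cells and 280.2 ± 63.0 CPM in spleen cells (SD, n = 4 each; edgeR adjusted p = 0.0363), called in 1 of the 8 fits. Its reads may be shared with its near-identical copies, so its level is uncertain. Junb averaged 5884 ± 1635 CPM in skin cells and 912 ± 1424 CPM in spleen cells and was not called with all libraries (edgeR adjusted p = 0.223). Without spleen replicate 4, Junb had a log2 fold change of 4.88 and was called (edgeR adjusted p = 0.000308). B2m, the light chain of MHC class I, averaged 5575 ± 574 in skin and 5813 ± 533 CPM in spleen (log2 fold change -0.06 ± 0.11, SE).

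Among ligands and cytokines, 9 of 16 listed genes were tested and Ccl5, a chemokine of effector T cells, was the 1 called. Over all genes, edgeR called 3.58% lower. Ccl5 fell to 74.4 ± 55.2 CPM in skin, against 808 ± 140 CPM in spleen (SD, n = 4 each; edgeR adjusted p = 0.0135), a log2 fold change of -3.44 ± 0.53 (SE). Its call was lost without spleen replicate 3 (edgeR adjusted p = 0.0502). The CD40 ligand gene Cd40lg averaged 239 ± 80.1 CPM in skin cells and 190.5 ± 59.3 CPM in spleen cells, and the lymphotoxin gene Ltb 51.1 ± 34.4 in skin and 118 ± 72.7 CPM in spleen. Neither was called.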

How the data were processed

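RNA of skin and spleen iNKT cells was made into cDNA with the SMART-Seq v4 kit for very small inputs and was sequenced in pairs of 75 bp reads, per the labels' protocols. This kit reads full-length cDNA and does not mark the strand. The authors deposited RSEM expected counts per gene, not scaled for library size; FastQC, DESeq2 1.16.1 and build mm9 are also named, per the submitters' processing notes. No source used here gives the aligner or the annotation.

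Expected counts were rounded. Genes passing filterByExpr were tested with edgeR 4.0.16 (limma 3.58.1, R 4.3.3): TMM scaling, robust quasi-likelihood fit with tissue as the only term, Benjamini-Hochberg adjustment. The SE is the log2 fold change divided by the square root of F. Pathway and marker lists held 232 matched genes of 233. The genes and lists were chosen with earlier results of these data known, and the 9-letter motif with the promoters in view. Named genes were the 10 genes, up to 4 called per direction and the 2 highest uncalled of each pathway list, the leading skin gene of each marker list, and the 3 nearest profiles. Alternatives were other scaling, filters, tools (DESeq2 1.42.0, limma-voom), rounding, the replicate block, removal of the 50 most abundant genes and each library left out. No 2 libraries agreed within sampling noise. A gene and a gene list that the rule would name are not reported here.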

Additional observations from a re-analysis of the deposited data

Results flagged for a closer look

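Among 36 genes given above by the naming rule (the 10 NF-kappaB genes and the pathway genes), 72 groups of 4 libraries were looked at for 1 library far from the other 3, by Dixon's test of the gap against the group's range at its 95% critical value. Such a library was found in 8. The critical value gives about 1 in 20 groups only for independent values with a normal spread. These levels hold many zeros and come from the same 8 libraries, and no rate over all genes was taken. The count of 8 is thus not set against chance. Nfkbiz was at 0 in skin replicate 1, against 94.6 to 107 CPM in the other skin libraries. Tnfaip3 stood at 803 CPM in spleen replicate 4, against 67.7 to 192 CPM in the other spleen libraries. Spleen replicate 4 was also the far library for Junb (3048 CPM, against 156 to 236) and Prkcq (523 CPM, against 233 to 281). Spleen replicate 2 was far from the others for Birc2 (174 CPM, against at most 104) and Cd40lg (279 CPM, against 152 to 166). Ccl5 stood at 1018 CPM in spleen replicate 3, against 731 to 751 CPM, and Ltb at 0 in skin replicate 3, against 62.6 to 75.1 CPM.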

How the results depend on the processing

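Over all genes, 128 were higher and 248 lower in skin; DESeq2 gave 295 and 447, limma-voom 207 and 500, the fit without a filter 48 lower, removal of the 50 most abundant genes 56 and 48, and the fits without 1 library 47 to 102 and 17 to 111. Of the 10 NF-kappaB genes, DESeq2 called 3 higher, removal of the abundant genes 0 (Tnfaip8 with an edgeR adjusted p that rounds to 0.05) and the fits without 1 library 0 to 1. Of the other pathway genes, 7 higher and 3 lower, DESeq2 gave 11 and 6, limma-voom 6 lower, no filter 1 lower, removal of the abundant genes 1 lower, and the fits without 1 library 1 to 5 higher and 0 to 2 lower. The same-numbered libraries did not deviate together (correlations of -0.00031 to 0.0138 across genes). That cannot settle whether they share an animal or a batch, which the labels do not state. The replicate block gave 36 higher and 14 lower over all genes, 0 of the 10 NF-kappaB genes and 1 higher (Sqstm1) and 1 lower (Ccl5) pathway gene. The sign turned for Birc3 under the block (0.55) and without single libraries (-0.57 to 1.49), and for Birc2 under the block (-4.89), limma-voom (-4.72), removal of the abundant genes (-0.0071) and without single libraries (-1.54 to 0.41). It turned for Tbk1 (-2.37) and Tnfrsf18 (-0.17) under limma-voom. The median log2 fold change over all genes tested was -2.06 under limma-voom and -0.99 under the block, against -0.29 in the main fit. Without single libraries the sign turned for Nfkb2 (-0.28 to 0.41), Nfkbiz (-0.38 to 0.28), Chuk (-0.10 to 1.01) and Ripk1 (-1.10 to 0.29). None of these 8 genes was called under any alternative run, and the cause was not tested. The other 28 named genes kept the sign of their log2 fold change under the alternatives run. Zeros at levels near 100 CPM, common in skin, limit what can be said of Rel, Nfkbiz and Birc3. They also limit the calls of Fadd and Tirap, which stood at or near 0 in skin.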

Other observations

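A few genes of the pathway lists outside the naming rule were picked after their values were seen. Vim, which encodes vimentin, and Plaur, the urokinase receptor gene, were the other 2 called targets of NF-kappaB. Vim stood at 591, 1155, 891 and 532 CPM in skin, against 219, 22.7, 162 and 92.2 CPM in spleen (edgeR adjusted p = 0.0473). Plaur stood at 223, 152, 106 and 39.3 CPM in skin and had no count in spleen (edgeR adjusted p = 0.045). Ikbkg, which encodes the IKK scaffold NEMO, stood at 0.151, 0, 0.227 and 1.69 CPM in skin, against 130.0, 4.78, 141 and 82.2 CPM in spleen, with no overlap and no call (edgeR adjusted p = 0.126). Cflar, an inhibitor of caspase 8 activation and a target of NF-kappaB, stood at 0, 0.770, 0.114 and 10.7 CPM in skin, against 127, 6.83, 52.7 and 71.6 CPM in spleen (edgeR adjusted p = 0.541). The stress gene Gadd45b ran the other way, at 481, 328, 658 and 473 CPM in skin, against 0, 36.9, 0 and 110.3 CPM in spleen, again with no overlap and no call (edgeR adjusted p = 0.554).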
